A study of Homo sapiens with 3 samples.

Results

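Small nucleolar RNAs (snoRNAs) and small Cajal body RNAs were examined in H2373 cells exposed to Hoechst dyes, which bind the minor groove of AT-rich DNA. The set comprised every gene whose symbol in the array annotation begins with SNORA, SNORD or SCARNA followed by a number. It held 61 genes with 62 probes, of 18851 genes on the array, and was made up of 10 H/ACA RNAs (SNORA), 49 C/D RNAs (SNORD) and 2 Cajal body RNAs (SCARNA).

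H2373 is a line established from a malignant pleural mesothelioma. Its cells received 36 µM Hoechst 33342 (H342) for 3 h, received 36 µM Hoechst 33258 (H258) for 3 h, or were left untreated, and no vehicle for the untreated cells was named. H342 is a derivative of H258 that carries an ethoxy group where H258 has a hydroxyl group. Each condition was measured on 1 array, 3 arrays in all, so no value here has a replicate, an error between arrays or a p-value, and precision is limited by that number.

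snoRNAs are short stable RNAs of the nucleolus that direct chemical changes to other RNAs by base pairing. C/D RNAs carry the C and D boxes and guide the methylation of ribose, whereas H/ACA RNAs fold into hairpins and guide the conversion of uridine to pseudouridine. Their main target is ribosomal RNA, and Cajal body RNAs guide the same reactions on spliceosomal RNAs. Most human snoRNAs lie in introns of other genes, called host genes, many of which encode ribosomal proteins, and they are cut out of the spliced intron. Mature snoRNAs have no poly(A) tail, while the labelling kit copied RNA from an oligo(dT) primer. Whether a probe saw the mature RNA, an unspliced host transcript or a tailed processing form therefore cannot be told apart.

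The signals were bead averages with no background subtracted and no scaling between arrays. At a detection p under 0.05 the lowest detected signals were 157 under H342, 160.0 under H258 and 156 in untreated cells, and the medians of all 48798 probes were 130.0, 132 and 133 in that order. Differences were taken after background correction and quantile normalization on the log2 scale, and a gene counted as higher or lower past a 2-fold difference if either of both arrays detected it. Of 11 measured markers of mesothelium and mesothelioma 8 were detected, among them MSLN, WT1 and CALB2, and KRT5, PDPN and LRRN4 were not. Of 10 markers of leukocytes, endothelium and glandular epithelium 3 were detected, CD68, PECAM1 and EPCAM. The summed signals of the mesothelial markers were 64268 under H342, 64558 under H258 and 63484 in untreated cells, and those of the other markers were 4377, 4971 and 3983. Each sum is mostly 1 gene, VIM with 55610, 56115 and 55460 and CD68 with 3104, 3769 and 2733, so the sums say little about the rest. The log2 differences under H342 were 0.90 for MSLN, -0.08 for WT1 and -0.33 for CALB2. In whole cultures, fewer cells with an RNA and less RNA per cell cannot be told apart.

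Of the 61 RNAs, 39 were detected on at least 1 array, 63.9%, against 57.2% of all genes. By array, 34 were detected under H342, 37 under H258 and 39 in untreated cells. Detection differed by class, with 9 of 10 H/ACA RNAs, 29 of 49 C/D RNAs and 1 of 2 Cajal body RNAs. The 22 others had signals between 84.1 and 151 on every array, below the lowest detected signal. All 6 members from the imprinted Prader-Willi region of chromosome 15, which are known for their expression in brain, were among them: SNORD64, SNORD107, SNORD108, SNORD109B, SNORD116-2 and SNORD116-4. SNORD107 was the member with 2 probes, and neither was detected. The remaining undetected RNAs were SNORA66, SCARNA15, SNORD4B, SNORD15A, SNORD18B, SNORD18C, SNORD26, SNORD27, SNORD28, SNORD38B, SNORD42A, SNORD42B, SNORD54, SNORD56B, SNORD83A and SNORD101. The U3 and U8 RNAs, SNORA73A, SNORA73B and SCARNA2 were not analysed here. H/ACA RNAs gave higher signals than C/D RNAs, with medians over the detected members of 301 under H342, 770 under H258 and 709 in untreated cells for H/ACA and 237, 252 and 281 for C/D. The annotated H/ACA RNAs were also longer, with a median of 134 bases, against 76 for C/D.

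**Figure D1:**
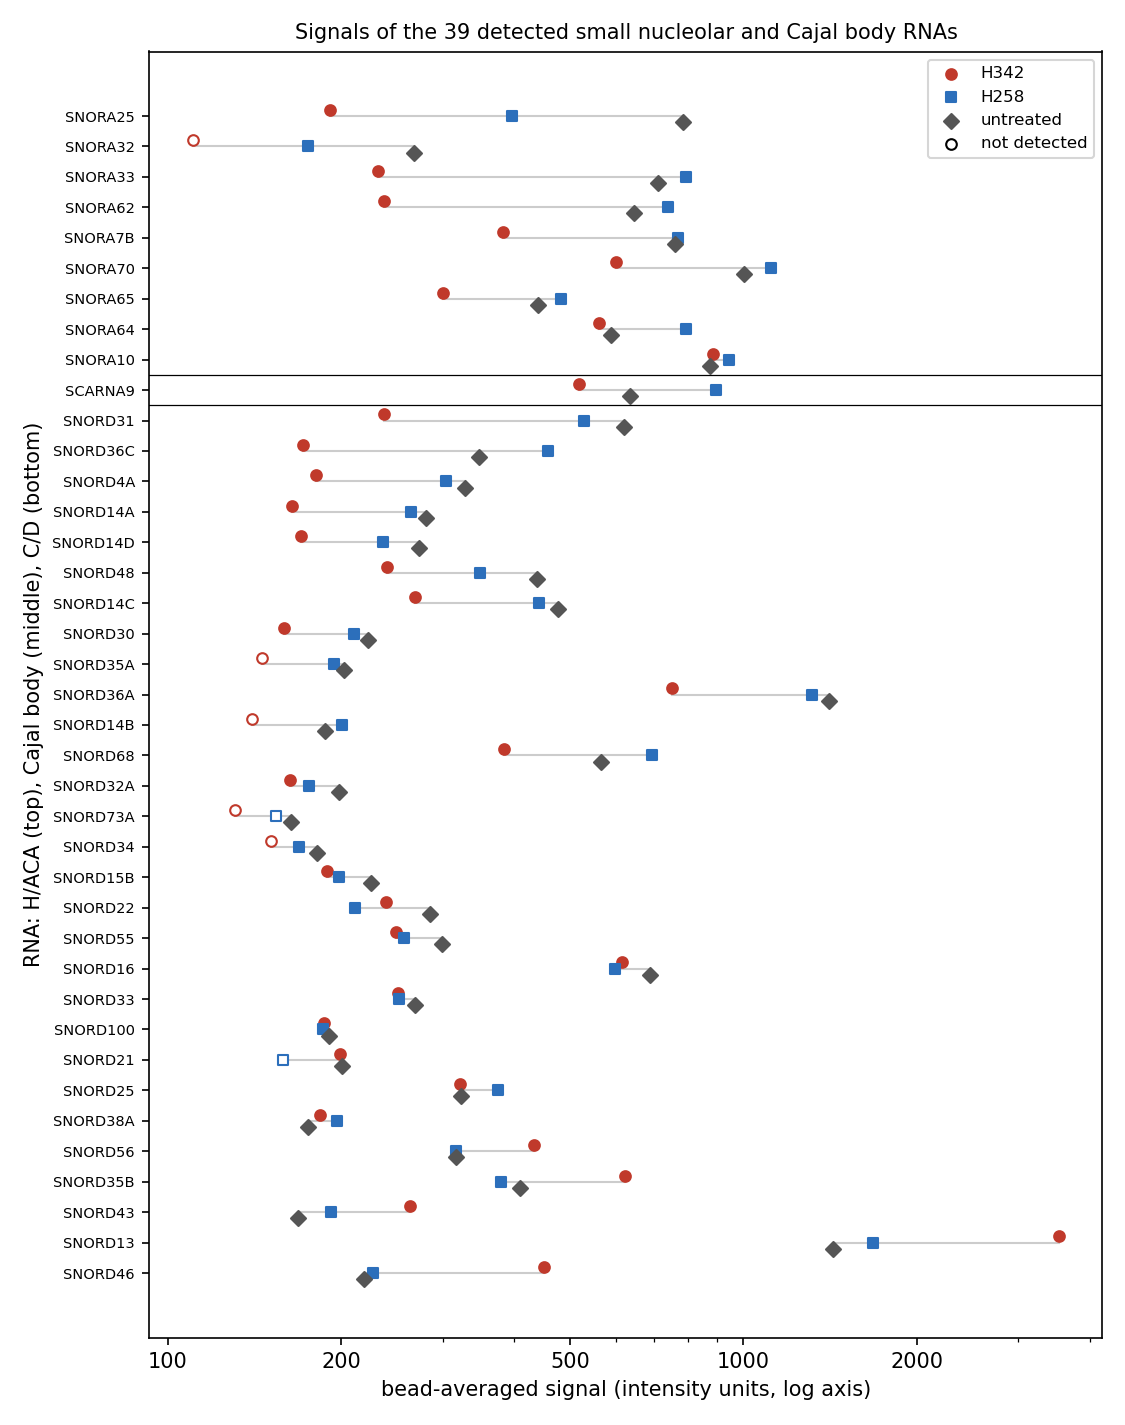
Bead-averaged signal (log axis, intensity units) of the 39 detected RNAs on the H342, H258 and untreated arrays, with H/ACA RNAs at the top, SCARNA9 next and C/D RNAs below, each class ordered by the H342 difference. Open symbols were not detected, and for most H/ACA RNAs the H342 point lies to the left of both others, while for SNORD46, SNORD13, SNORD43 and SNORD35B it lies to the right.

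Under H342, 12 of the 39 RNAs were lower and 3 were higher than in untreated cells by at least 2-fold. That is 30.8% and 7.69% of the members, beside 3.61% and 1.25% of all 10581 genes tested. The median of the 39 log2 differences was -0.53, against 0.03 for all genes, and 28 of 39 lay below 0, 71.8%, against 46.8% of all genes. All 39 were detected in untreated cells and 34 under H342, so that the other 5, all below 0, entered only through the untreated array. Over the 34 RNAs detected on both arrays, 11 were lower, 3 were higher and 23 lay below 0, 67.6%, against 44.5% of the genes so detected. By class, 5 of 9 H/ACA RNAs and 7 of 29 C/D RNAs were lower, while 0 H/ACA and 3 C/D RNAs were higher. The median log2 difference was -1.16 for H/ACA and -0.48 for C/D, and over RNAs detected on both arrays -0.96 and -0.32. The robust SD of the differences over all genes was 0.387 on the log2 scale, which is a spread between genes and not an error of any RNA. Under H258, 0 of the 39 RNAs were higher and 2 were lower, 5.13%, beside 0.768% higher and 3.35% lower among 10550 genes. Below 0 lay 22 of the 39, against 44.5% of all genes. The medians under H258 were 0.23 for H/ACA and -0.07 for C/D, against 0.06 for all genes.

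**Figure D2:**
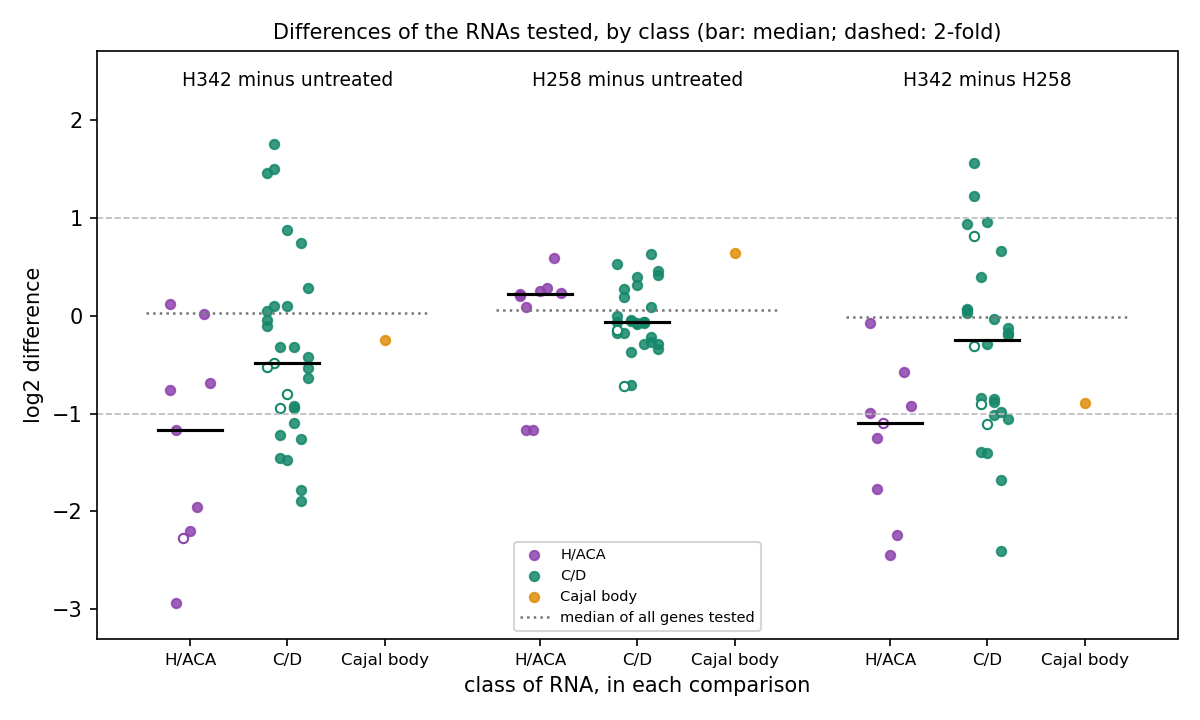
Log2 difference (vertical axis) of each RNA tested, by class, for H342 minus untreated, H258 minus untreated and H342 minus H258. Bars are class medians, dotted lines the median of all genes tested and dashed lines 2-fold; the H/ACA median is -1.16 in the first comparison and 0.23 in the second. Open points were not detected on an array of the comparison and are drawn at the measured value, of which only a bound is known.

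SNORA25 was the lowest of all members under H342. Its signal was 192 under H342, 397 under H258 and 784 in untreated cells. It was 7.67-fold lower under H342 than in untreated cells (log2 difference -2.94) and was also lower under H258 (-1.17). SNORA32, from the same host gene TAF1D, which encodes a subunit of the SL1 factor of RNA polymerase I, had 110 under H342, where it was not detected, 175 under H258 and 267 in untreated cells. It was at least 2.81-fold lower under H342, and its log2 difference under H258 was -1.17. These were the only members past 2-fold under H258, and both signals there lay between those of the other arrays. Neither call under H258 held in the deposited value table, where the differences were -0.88 for SNORA25 and -0.61 for SNORA32 and 0.806% of all genes were lower and 0.0284% higher, nor without background correction, where 1.03% and 0.0284% were.

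SNORA33 and SNORA62 showed a different order of the arrays. SNORA33 had a signal of 231 under H342, 794 under H258 and 709 in untreated cells. It was 4.59-fold lower under H342 than in untreated cells, and its log2 difference under H258 was 0.25. SNORA62, also named E2, had 238 under H342, 739 under H258 and 645 in untreated cells. It was 3.88-fold lower under H342, with 0.29 under H258. SNORA7B had 382 under H342, 770 under H258 and 761 in untreated cells and was 2.24-fold lower under H342 (log2 difference -1.16). For these 3 RNAs the H258 and untreated signals lay close together and the H342 signal stood apart from them.

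The other H/ACA RNAs did not reach 2-fold under H342. SNORA70, the brightest H/ACA RNA in untreated cells, had 600.3 under H342, 1115 under H258 and 1002 in untreated cells, a log2 difference of -0.76 under H342. SNORA65 had 301, 481 and 440 in the same order of arrays (-0.69 under H342). SNORA64 had 560.1 under H342, 796 under H258 and 590 in untreated cells, and it was the highest H/ACA RNA under H258 at 0.59, with 0.01 under H342. SNORA10 had 884 under H342, 946 under H258 and 875 in untreated cells, a log2 difference of 0.12 under H342. The last pair share the host gene RPS2 and gave the differences nearest 0 among the H/ACA RNAs under H342. SCARNA9, which guides modification of the U2 spliceosomal RNA, had 518 under H342, 896 under H258 and 635 in untreated cells. Its log2 differences were -0.25 under H342 and 0.64 under H258.

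Among the C/D RNAs SNORD31 was the lowest under H342. It had 237 under H342, 529 under H258 and 620 in untreated cells and was 3.71-fold lower under H342 (log2 difference -1.89), with -0.22 under H258. SNORD36C had 172 under H342, 458 under H258 and 347 in untreated cells and was 3.43-fold lower under H342, while its difference under H258, 0.63, was the highest of the C/D RNAs. SNORD4A had 181 under H342, 305 under H258 and 329 in untreated cells and was 2.78-fold lower under H342. SNORD48, a methylation guide often used as a reference RNA in microRNA measurements, had 240.2 under H342, 349 under H258 and 437 in untreated cells. It was 2.33-fold lower under H342 and had a log2 difference of -0.37 under H258.

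SNORD14 (U14) guides methylation of 18S rRNA and in yeast is also needed for the cleavages that release it, and the array carried a probe for each of 4 copies. SNORD14A had 164 under H342, 265 under H258 and 281 in untreated cells, SNORD14C had 269, 442 and 477 in the same order, and SNORD14D had 170.1, 236 and 273. They were 2.75-fold, 2.14-fold and 2.40-fold lower under H342. For SNORD14A and SNORD14D the H342 signals were near the lowest detected signal there, 157. Without background correction the log2 differences were -0.71 for SNORD14A, -0.75 for SNORD14C and -0.61 for SNORD14D, so none of these calls held. SNORD14B was not detected under H342, with a signal of 140 there, 200.4 under H258 and 187 in untreated cells, which makes it at least 1.39-fold lower. All 4 signals were lowest under H342. The copies resemble each other, so that a probe may see more than 1 of them, and they are not independent observations.

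SNORD46, SNORD13 and SNORD43 were the only members higher by at least 2-fold under H342. SNORD46 had 450 under H342, 227 under H258 and 219 in untreated cells, a 3.38-fold excess of H342 over untreated cells that was the highest of all members. SNORD13 (U13), which pairs with the 3′ part of 18S rRNA and guides its acetylation, was the brightest member on every array, with 3536 under H342, 1681 under H258 and 1429 in untreated cells. It was 2.82-fold higher under H342, and its log2 difference under H258 was 0.27. SNORD43, a guide of 18S methylation, had 264 under H342, 192 under H258 and 168 in untreated cells and was 2.76-fold higher under H342. For SNORD46 and SNORD13 the H258 and untreated signals lay near each other and the H342 signal stood apart. For SNORD43 the H258 signal lay between the others, with log2 differences of 0.52 for H258 against untreated cells and 0.94 for H342 against H258.

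The members nearest the threshold without passing it under H342 were SNORD30 at -0.95 and SNORD36A at -0.92 among the lower RNAs and SNORD35B at 0.88 and SNORD56 at 0.75 among the higher. On the inner side, SNORD14C stood at -1.10 and SNORD43 at 1.46. SNORD36A, the second brightest C/D RNA, had 752 under H342, 1313 under H258 and 1409 in untreated cells. SNORD35A, not detected under H342, had 146 there, 194 under H258 and 203 in untreated cells, which makes it at least 1.66-fold lower under H342. SNORD35B had 623 under H342, 379 under H258 and 408 in untreated cells, and SNORD56 had 433, 316 and 317. SNORD68 had 383 under H342, 694 under H258 and 565 in untreated cells (-0.64 under H342), and SNORD16 had 615, 599 and 689 (-0.10). The remaining 11 C/D RNAs, SNORD15B, SNORD21, SNORD22, SNORD25, SNORD32A, SNORD33, SNORD34, SNORD38A, SNORD55, SNORD73A and SNORD100, did not pass 2-fold. SNORD34 and SNORD73A were not detected under H342, and the other 9 had log2 differences between -0.53 and 0.28 there. Under H258 the lowest C/D RNAs were SNORD21, at least 1.60-fold lower since it was not detected there, and SNORD22 at -0.71.

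**Figure D3:**
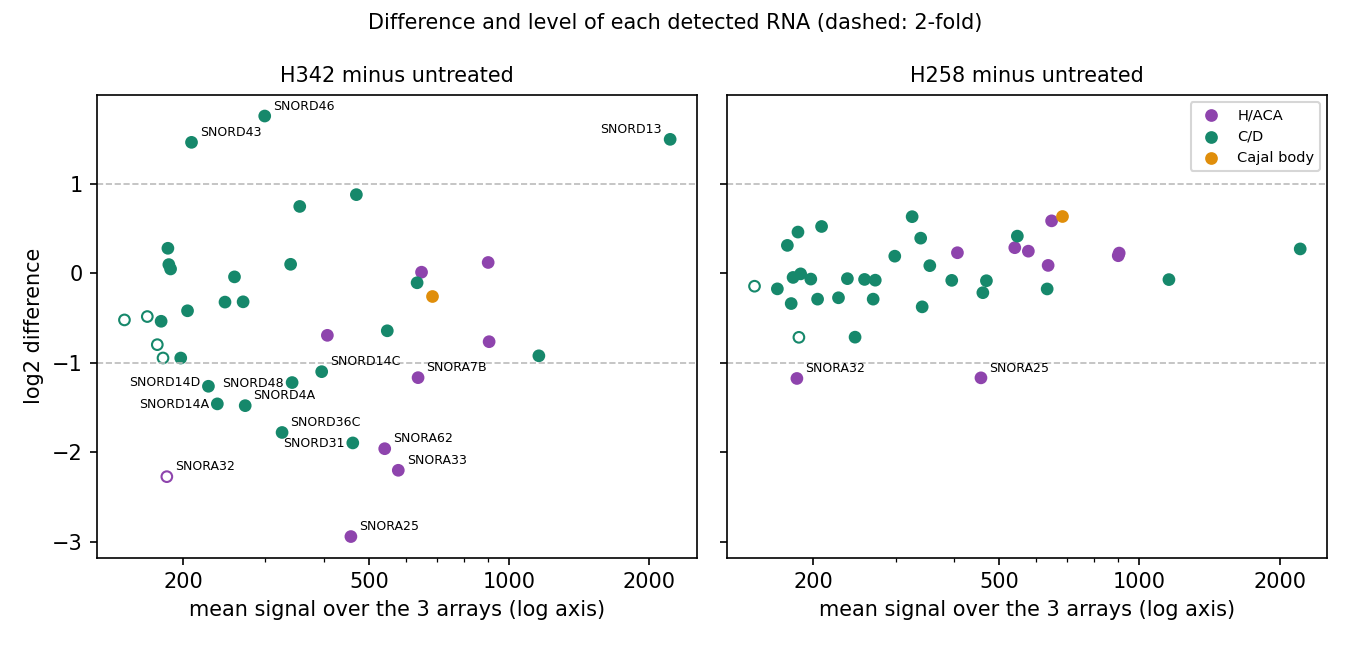
Log2 difference (vertical axis) against mean signal over the 3 arrays (horizontal log axis) of each detected RNA, for H342 minus untreated and H258 minus untreated, coloured by class. RNAs past 2-fold are named and points not detected on an array of the comparison are open. Under H342 the RNAs lower by at least 2-fold had mean signals from 184 for SNORA32 to 638 for SNORA7B. SNORD13, the brightest at 2215, was higher. SNORA64, SCARNA9, SNORA10, SNORA70 and SNORD36A, between SNORA7B and SNORD13 in mean signal, did not pass 2-fold.

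Of the calls under H342 against untreated cells 7 lower and 1 higher rested on the background correction. Without it, and likewise in the deposited value table, 5 of the 12 lower calls under H342 held, those of SNORA25, SNORA32, SNORA33, SNORA62 and SNORD31, and 2 of the 3 higher calls, those of SNORD13 and SNORD46. All genes gave 1.38% lower and 0.246% higher without the correction and 1.32% and 0.217% in the deposited table. Since H/ACA RNAs were brighter than C/D RNAs, the classes were also compared over members with a mean signal of at least 300. Under H342, 4 of 8 such H/ACA RNAs were lower and none was higher, and their median was -0.96. Of 11 such C/D RNAs 4 were lower and 1 was higher, and their median was -0.64. Among all genes as bright, 3.1% were lower and 0.712% higher under H342. The corresponding counts were 1 lower and 0 higher of the 20 bright RNAs under H258, beside 3.19% and 0.256% of genes, and 8 lower and 1 higher for H342 against H258, beside 3.39% and 3.46%. The gap between the class medians was smaller there than over all detected members, and it was not tested.

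H342 and H258, at the same dose and time, were then compared directly. Under H342, 12 of 38 RNAs were lower than under H258 and 2 were higher by at least 2-fold, 31.6% and 5.26%, beside 3.69% and 3.74% of 10296 genes. With undetected sides set to the lowest detected level, 10 were lower, beside 3.25% of genes. All 9 H/ACA RNAs lay below 0 in this comparison, 5 of them past 2-fold with a median log2 difference of -1.10, or 4 with a median of -0.99 at those levels. All genes lay below 0 in 51.6% of cases. Of 28 C/D RNAs 7 were lower and 2 higher, and their median was -0.25, or 6 lower with a median of -0.20 at those levels. Over members with a mean signal of at least 300 the medians lay closer together, at -1.12 for H/ACA and -0.85 for C/D. SNORA33 at -2.45, SNORD36C at -2.41 and SNORA62 at -2.24 were the lowest, and SNORD46 at 1.56 and SNORD13 at 1.22 were higher. The RNAs just past the threshold were SNORD14C at -1.02 and SNORD68 at -1.06, and just short of it lay SNORA70 and SNORD14D, both at -0.99, and SNORD35B at 0.96. SCARNA9 had -0.90 and SNORA10, the highest H/ACA RNA, -0.08. For SNORA32 and SNORD14B, which were not detected under H342, the folds were at least 1.25 and at least 1.72. Of these calls 5 of the 12 lower and both higher held in each of 2 other treatments of the values, with uncorrected signals, where 1.52% of all genes were lower and 1.32% higher, and in the deposited table, where 1.48% and 1.07% were. The comparison with untreated cells and the direct one share the H342 array, and with 1 array for each dye no interval of the difference can be given.

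By their positions in the RefSeq gene table, 60 of the 61 RNAs lie within the bounds of another gene. SNORD13 is the exception, a gene on chromosome 8 with its own promoter. The 38 other detected RNAs lie in 24 host genes, and 26 of them in genes of ribosomal proteins. The table gives neither strand nor introns, so a host is the shortest gene that contains the RNA. The own probes of 18 hosts were detected, for 27 of the RNAs. None of these hosts passed 2-fold in any comparison, and their log2 differences under H342 lay between -0.53 and 0.24 with a median of -0.01. For the 27 RNAs the median was -0.69, 11 of them passed 2-fold, and 24 lay farther from 0 than their host. Of the 22 detected on both arrays 10 passed 2-fold and 19 lay farther from 0. Under H258 the hosts lay between -0.35 and 0.43, 2 RNAs passed 2-fold, and 19 lay farther from 0 than their host. Signals of the hosts ran from 182 to 62367, and 8 hosts exceeded 30000 on all arrays. The part of brightness in the size of the host differences was not tested.

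RNAs of the same host gene often differed from each other. RPS12 holds SNORA33, at -2.20 under H342, and SNORD100, at 0.05, a range of 2.25, while its own probe gave 0.03. SNORD100 was dim, with 186 under H342, 186 under H258 and 191 in untreated cells. That is near the lowest detected signals and left little room to measure a decrease. SNHG1, a noncoding host gene with several C/D RNAs in its introns, holds SNORD31 at -1.89, SNORD30 at -0.95, SNORD22 at -0.32 and SNORD25 at 0.10. SNORD30 had 159 under H342, where the lowest detected signal was 157. In RPL13A, whose 4 C/D RNAs are known from work on lipid stress, the log2 differences were -0.53 for SNORD32A, -0.04 for SNORD33 and 0.07 for the host. There SNORD35A and SNORD34, not detected under H342, were lower by at least 1.66-fold and 1.30-fold. SNORD32A had a signal of 163 under H342, also near the lowest detected signal, and -0.23 without background correction. In RPL7A, SNORD36C had -1.78 and SNORD36A -0.92, with 0.22 for the host. SNORD36C was near the lowest detected signal too, with 172 under H342. Without background correction SNORD36C had -0.94 and SNORD36A -0.82, so most of their gap rested on that correction. The RNAs of HSPA8 and those of RPS2 lay within 0.16 of each other. In TAF1D and RPS13 1 of the RNAs was not detected under H342 and no range can be given. The TAF1D probe was dim, with signals of 194 under H342, 182 under H258 and 203 in untreated cells, and gave -0.02 under H342. HSPA8, which encodes the constitutive HSC70 chaperone and holds SNORD14C and SNORD14D, had the lowest host difference under H342, -0.53.

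**Figure D4:**
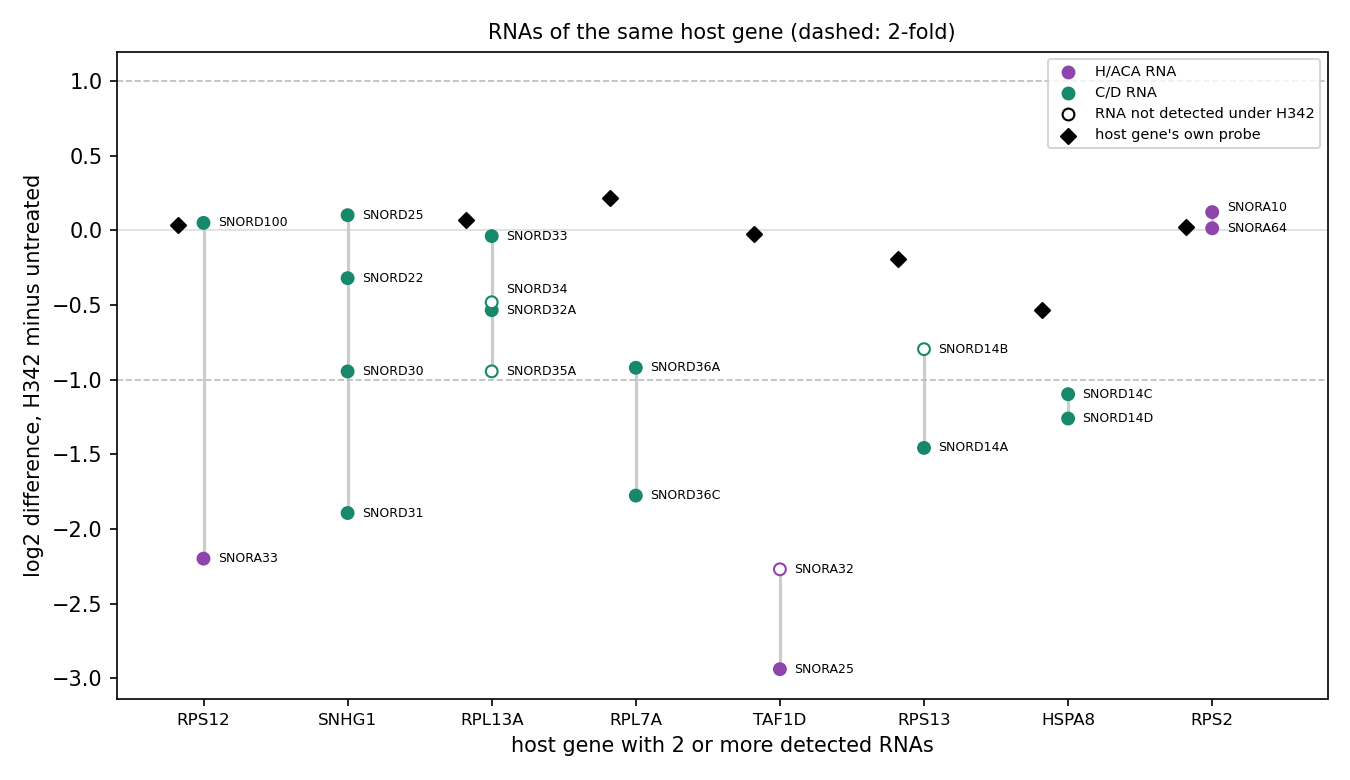
Log2 difference of H342 minus untreated (vertical axis) for the detected RNAs of 8 host genes with 2 or more of them, and for the host's own probe where it was detected (diamonds). Hosts are ordered by the range of their RNAs, from 2.25 in RPS12 to 0.11 in RPS2, and the diamonds lie between -0.53 and 0.22. Open RNAs were not detected under H342 and are drawn at the measured value, of which only a bound is known.

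Many host genes of snoRNAs are known for a terminal oligopyrimidine tract, a run of C and T at the start of the transcript that ties its translation to growth signals. The starts of hosts whose RNAs passed 2-fold against untreated cells are shown because these genes contain the RNAs, as entered in the RefSeq promoter table (build GRCh38.p14). Each stretch runs from 20 bases before the annotated start of the transcript through its first 10 bases, 5′ to 3′ on the strand of the gene, and capitals mark the longest run of C and T between 5 bases before the start and the end of the stretch.
TAF1D, host of SNORA25 and SNORA32, chr11:93741486-93741515, minus strand: gggccacggaaatagccaaCCCTTTTCTTC
RPS12, host of SNORA33, chr6:132814549-132814578, plus strand: ggcatgcgtgcggatgaggCCTCTTTCCCT
RPSA, host of SNORA62, chr3:39406700-39406729, plus strand: cgtcatttcctgccgcctgTCTTTTCCgtg
SNHG1, host of SNORD31, chr11:62855876-62855905, minus strand: tctccccggggagattcgttctcaTTTTTC
RPL7A, host of SNORD36C, chr9:133348198-133348227, plus strand: attacccacaattccCTTTCCTTTCTCTCT
RPS13, host of SNORD14A, chr11:17077658-17077687, minus strand: ggcgtttccactctcgCTCTCCTTTCgttg
SNHG32, host of SNORD48, chr6:31834896-31834925, plus strand: ccggcctcgccattttagTTCTTTTTgcga
HSPA8, host of SNORD14C and SNORD14D, chr11:123062127-123062156, minus strand: ggtggcgggcggaaaccggTCTCattgaac
RPL3, host of SNORD43, chr22:39319614-39319643, minus strand: gacccgtaaggccgaccggCCTCTaccggc
A run of at least 6 bases of C or T, searched on the strand of the gene only, was present in 11 of the 18 hosts with an entry, 61.1%, and in 13.8% of all 27303 promoters of the table. Among the hosts shown, the runs were 15 bases in RPL7A, 11 in TAF1D and RPS12, 10 in RPS13, 8 in RPSA and SNHG32, 6 in SNHG1, 5 in RPL3 and 4 in HSPA8. Only RPL3 among them holds an RNA that was higher under H342, so run length was not compared with direction. The share of A and T in the 250 bases before the start had a median of 38.0% in the 18 hosts, between 22.0% and 56.8%, against 42.0% over all promoters. These are descriptions of the letters. The table had no entry for any of the 61 RNAs themselves, nor for the hosts RPL23A and RPL32P3.

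The proteins that assemble, move and trim these RNAs were followed through 5 lists. Under H342, 3 of 44 tested genes were lower by at least 2-fold and 0 were higher, 6.82% lower beside 3.61% of all genes, with a median log2 difference of -0.13. All 3 belong to the 12 genes of trafficking and the Cajal body. COIL, the scaffold of the Cajal body, had signals of 390.0 under H342, 948 under H258 and 1214 in untreated cells, a log2 difference of -1.89 under H342. GEMIN4, a subunit of the SMN complex, had 1855 under H342, 5680 under H258 and 4704 in untreated cells (-1.30). TGS1, which puts the trimethylguanosine cap on U3 and U13 and on spliceosomal RNAs, had 206 under H342, 285 under H258 and 352 in untreated cells (-1.21). COIL and GEMIN4 were lower under H342 than under each of the other conditions by at least 2-fold, and the TGS1 difference was -0.72 in the deposited table. TCOF1 was the highest of this list at 0.21.

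None of 6 genes of the H/ACA core and its assembly passed 2-fold in any comparison, and under H342 they ran from -0.33 for DKC1, the pseudouridine synthase, to 0.08 for NHP2. None of the 4 C/D core genes did either, with -0.18 for NOP58 and 0.02 for FBL, the methyltransferase, under H342. Among 9 genes of shared assembly NUFIP1 had -0.43 and PIH1D1 0.36, and among 13 genes of intron release, trimming and decay TENT4A had -0.68 and XRN1 0.54 under H342.

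Under H258, 1 of the 44 genes was lower by at least 2-fold and 0 were higher, 2.27%, beside 3.35% of all genes. RPAP3, a cofactor of HSP90 in snoRNP assembly, had 804 under H342, 396 under H258 and 974 in untreated cells, a log2 difference of -1.52 under H258. NOP58 had -0.89 and SNU13 0.25, DKC1 -0.23 and SHQ1 0.38, PHAX -0.83 and WRAP53 0.55, and XRN1 -0.92 and EXOSC4 0.42 as the lowest and highest of their lists under H258. Compared directly, 3 genes were higher under H342 than under H258, RPAP3 at 1.31, the exonuclease XRN1 at 1.46 and the poly(A) polymerase TENT4B at 1.14, and 2 were lower, COIL and GEMIN4, both at -1.56. That is 6.82% and 4.55% of the 44, near the 3.74% and 3.69% of all genes.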

How the data were processed

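RNA of H2373 cells, 1 culture condition per array, was copied into biotin-labelled cRNA and applied to an Illumina BeadChip. The authors deposited non-normalized signal intensities, bead averages made with BeadStudio 3.1.3.0 per the labels, and, per the file headers, a detection p-value beside each, by Illumina's convention set by the negative controls of the array. The other deposited table, used as an alternative, has linear intensities that were normalized between arrays. Its method is not given in the sources used here. The file and the paper name different versions of the BeadChip, and the annotation is that of the version in the file.

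Background was corrected with limma 3.58.1 (R 4.3.3), the offset being 16 and the negative controls taken from the detection p-values. Quantile normalization and log2 came next. Python 3.11.15 was used for the rest. Of 48798 probes 28093 had 1 symbol, 13 had several and 20692 had none. All 61 symbols matched the RefSeq gene table. A gene was represented by its probe with the highest mean. Where 1 side was undetected, counts and medians use its measured value, and a fold, taken against its array's lowest detected level, is written as "at least". No test was run. One host gene is not reported here. The steps were tested on simulated data, with differences put only into probes well above background, so calls on the dimmer members were not covered. RNAs named with values were those past 2-fold, the brightest, the extremes of each class and those nearest the threshold, and the same rule named the proteins. Members, lists and rules were chosen with earlier results of these data known. The alternatives were another offset, no background correction, 3 other scalings, the deposited table, other detection filters, folds of 1.5 and 3, a bound for undetected sides, and the mean of probes or probes in place of genes.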

Additional observations from a re-analysis of the deposited data

How the results depend on the processing

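The direction of every called RNA was kept under each alternative that gave a value for it. Of 31 called differences, 17 fell below 2-fold without background correction and 17 in the deposited table. An offset of 50 took 7 below it, and undetected sides at the lowest detected level took 2. The other detection filters, the mean of probes and the minimum mean signal leave the value of a called RNA as it is, so they could not change a difference. Scaling by the median, by cyclic loess or not at all kept every call and gave 13, 12 and 15 lower RNAs under H342, against 12. Signals close to the detection limit limit what can be measured. Without background correction 5 RNAs were lower under H342 than in untreated cells, and likewise 5 in the deposited table. The H/ACA median was then -0.92 and -0.87, and the C/D median -0.21 and -0.27. Against H258 the same settings gave 5 and 5 lower, H/ACA medians of -0.86 and -0.80 and C/D medians of -0.11 and -0.14, and under H258 they gave 0 and 0 lower than in untreated cells. An offset of 50 gave 1 lower RNA under H258 and a C/D median of -0.30 under H342. With detection required on both arrays the medians under H342 were -0.96 for H/ACA and -0.32 for C/D, and with no detection filter -0.96 and -0.12. With no filter the C/D median for H342 against H258 was -0.039. Undetected sides at the lowest detected level gave a C/D median of -0.38 under H342 and 10 lower RNAs against H258, where SNORA32 (-0.32) and SNORD14B (-0.78) no longer passed. Detection on both arrays also gave 10. A fold of 1.5 gave 5 higher and 19 lower under H342, beside 7.95% and 9.84% of all genes. Under H258 it gave 3 higher and 4 lower, beside 7.22% and 11.6%, and for H342 against H258 6 higher and 20 lower, beside 11.5% and 10.3%. A fold of 3 gave 1 higher and 6 lower under H342, beside 0.142% and 1.03%, 0 lower under H258, beside 0.284%, and 0 higher and 5 lower against H258, beside 0.418% and 1.07%. The minimum mean signal of 300, chosen after seeing the data, gave 1 higher under H342, 1 lower under H258 and 1 higher against H258, medians of -0.96 for H/ACA and -0.64 for C/D under H342, and a C/D median of -0.85 against H258. Of the proteins, 1 was higher for H342 against H258 in the deposited table, XRN1, against 3. At a detection p of 0.01, 29 RNAs were detected. No paired analysis was possible because each condition has 1 array.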
